A study of Rattus norvegicus with 30 samples.

Results

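Dorsal root ganglia (DRG), which hold the cell bodies of the sensory neurons, were compared between 14 d and 7 d after the sciatic nerve had been resected. The comparison rests on 6 of the 30 arrays of the series, 3 of each day, chosen by their sample titles, and every probe that is not a control was considered. The rats were adult male Sprague-Dawley animals, all groups alike. Under anaesthesia with trichloroacetaldehyde monohydrate, magnesium sulfate and sodium pentobarbital, a segment of the left sciatic nerve was cut out at mid-thigh, the L4-6 DRG and the proximal sciatic nerve (SN) were collected at 0, 1, 4, 7 or 14 d, and total RNA was hybridized with a single dye to Agilent whole-genome rat arrays. The labels describe 5 groups of 6 rats and do not tell which rats an array holds, so that the p-values measure the spread between arrays. Neither day is a control: both groups were injured, and the levels at 0 d are given as a reference. The labelled tissue matched its markers in the 22 tested genes of the neuron identity list (of 24 in the list). Their mean log2 signal, scaled to each array, was 2.28 to 2.41 on the 6 DRG arrays. It was -2.65 to -2.07 on the SN arrays of 7 and 14 d. Only genes well above background in DRG were tested, so that their presence there is no further evidence.

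After axotomy, sensory neurons leave their transmitting state and enter a growth state: transcription factors of the injury response such as Atf3 and growth-associated proteins are induced, peptides such as galanin and neuropeptide Y appear in neurons that hardly make them otherwise, and satellite glia, macrophages and lymphocytes around the cell bodies respond. Type I interferons are signals of innate immunity, which act through the STAT and IRF transcription factors on a shared set of target genes. Many clock genes have a daily rhythm in peripheral tissues, and glucocorticoid hormone also acts on several of them.

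Values are normalized signals, that is the log2 processed intensity of a probe minus the 75th percentile of its array, so that 0 is a bright probe and dim probes are negative. A change is the mean of the 3 arrays at 14 d minus that at 7 d on this log2 scale, given with its standard error (SE). Levels are not compared between probes. Called means here that the fold change was over 2 with a p under 0.05 after adjustment by Benjamini-Hochberg over all tested probes. By this rule limma called 0 of 33955 tested probes (0%), with a smallest adjusted p of 0.0808. At an unadjusted p under 0.05 it found 7410 probes, of which 5183 (15.3% of those tested) were higher and 2227 (6.56%) lower at 14 d. Of these, 678 were higher and 72 lower by over 2-fold. The t-test named in the study's methods found 5868 probes at an unadjusted p under 0.05 and 0 after adjustment, with a smallest adjusted p of 0.146. The median change of all tested probes was 0.07, or 0.08 with 1 probe a gene. Under quantile normalization it was -0.01, and the share of higher probes among those at an unadjusted p under 0.05 was 44.1% in place of 69.9%, so that the surplus of higher probes was there with scaling to the 75th percentile and not with quantile normalization. The arrays of the days did not overlap for 19.9% of the tested probes on the higher side and 9.65% on the lower side. Words such as higher and lower in the following therefore describe values, and adjusted p-values are from this limma fit unless 15 arrays are named. Counts of higher and lower list members at an unadjusted p under 0.05 are to be read beside the shares of 15.3% and 6.56% over all tested probes.

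A limma fit over all 15 DRG arrays, which estimates the spread from 5 days in place of 2, called 11 probes higher (0.0324%) and 24 lower (0.0707%). At an adjusted p under 0.05 and any fold it held 62 higher (0.183%) and 159 lower (0.468%). The arrays were also unevenly placed. Replicate 1 of 7 d lay on a slide, scanned on another day, with the 3 SN arrays of 7 d, replicates 2 and 3 of 7 d on a slide with 2 SN arrays of 14 d, and all 3 arrays of 14 d on a slide with the third SN array of 14 d. Without replicate 1 of 7 d, limma called 1175 probes higher and 51 lower. These 1175 probes were dim, with a median signal of -4.96 against -1.92 over all tested probes. Their median was 1.12 higher on replicate 1 of 7 d than on replicates 2 and 3, and 1.39 higher on the SN array of 14 d that shared the slide of the 14 d DRG arrays than on the other two. These probes were selected by their change against replicates 2 and 3 of 7 d alone, so that the 1.12 is in part fixed by the selection. Their median change was 1.35 without that replicate, which the selection also fixes in part, and 0.05 with the slide as a block. The block fit takes the 12 arrays of 7 and 14 d of both tissues. Its DRG change is 14 d minus replicates 2 and 3 of 7 d, less a slide difference. That slide difference is SN 14 d replicate 3 minus SN 14 d replicates 1 and 2, so that it rests on 1 nerve array. Replicate 1 of DRG 7 d has no weight in it. For dim probes, a change and a slide cannot be told apart here. Of the 152 genes whose change is given here, 27 had the opposite sign in this block fit, and of the others 39 had a change over 1.5 times smaller and 28 one over 1.5 times larger. None of the 27 opposite values had an adjusted p under 0.05 there, the smallest being 0.0952 for Ambn. The block fit is also less precise, with a median SE of 0.199 over the tested probes against 0.113 with the 6 arrays. Of the 38 gene lists below, 27 had a median in the block fit that moved by more than the spread between arrays. The value in the block fit stands beside each of these 27 genes and 27 medians, and with the genes called with 15 arrays. The correlation between arrays was 0.992 to 0.997 within 7 d, 0.991 to 0.994 within 14 d and 0.985 to 0.993 between the days.

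**Figure D1:**
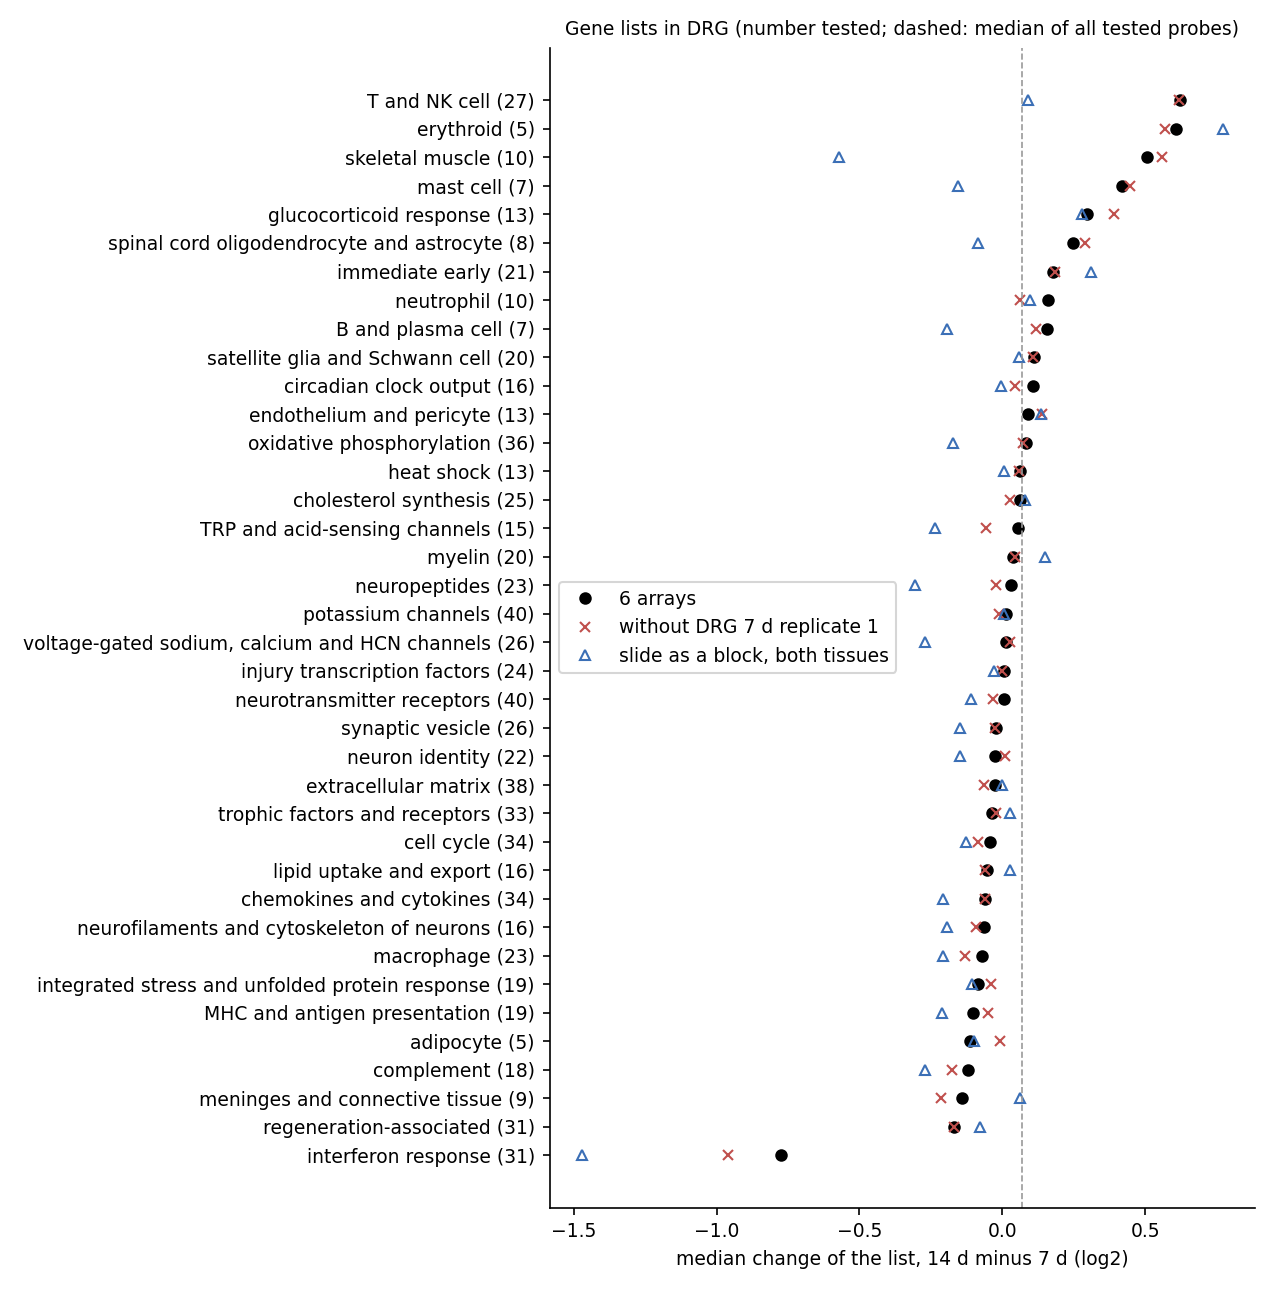
Median change of each of 38 gene lists from 7 d to 14 d in DRG (x axis, log2), with the number of tested genes in brackets. Filled circles stand for the 6 arrays, crosses for the fit without DRG 7 d replicate 1 and open triangles for the fit with the slide as a block, and the dashed line marks the median of all tested probes at 0.07. The interferon response list lies apart at the low end under all 3 settings, while the T and NK cell list lies at the high end except with the slide as a block.

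The clearest shared difference was in the interferon response list, whose genes were lower at 14 d. Of 31 tested genes 25 were lower and 0 higher at an unadjusted p under 0.05, where 6.56% of all tested probes were lower, and the same number, 25, had all arrays of 14 d below all arrays of 7 d, against 9.65% of all probes. The median change of the list was -0.78, against 0.07 over all tested probes. None of the list passed an adjusted p of 0.05 in the fit of 6 or of 15 arrays. Several of these genes have an interferon-stimulated response element near their start, the DNA sequence that binds the STAT and IRF complexes of this pathway. The windows below lie upstream of the gene start (RefSeq, GRCr8, 5′ to 3′ on the strand of the gene), with matches to its core in capitals. The core searched was GAAA, any 2 bases and GAAA, which reads TTTC, any 2 bases and TTTC from the other strand. They are shown for the gene with the largest difference in the list, for the pathway's own transcription factor Irf7, and for Sp110 and Parp14, which are outside the list and were called with all 15 arrays.
Ifit3 (chromosome 1, 241527252 to 241527321, plus strand): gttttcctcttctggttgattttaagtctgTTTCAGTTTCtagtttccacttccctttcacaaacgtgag
Irf7 (chromosome 1, 205800053 to 205800122, minus strand): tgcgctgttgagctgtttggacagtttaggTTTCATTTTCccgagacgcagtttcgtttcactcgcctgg
Sp110 (chromosome 9, 93670678 to 93670747, minus strand): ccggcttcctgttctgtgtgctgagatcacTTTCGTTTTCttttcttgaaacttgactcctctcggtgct
Parp14 (chromosome 11, 78408028 to 78408097, plus strand): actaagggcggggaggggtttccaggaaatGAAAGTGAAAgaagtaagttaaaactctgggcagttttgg
The core, searched on both strands within 250 bases before the start, was found in 15 of the 22 interferon list genes that have an entry in the promoter table (68.2%), in 12 of the 17 such genes that were lower (70.6%), and in 1140 of all 33469 promoters (3.41%). It was found in 1 of 21 genes of the T and NK cell list (4.76%). A match describes these letters and not a bound site.

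Ifit3 and Ifit1, neighbouring genes for proteins that bind viral RNA, had the largest differences of the list. The normalized signal of Ifit3 (probe at chromosome 1, 238574983 to 238575042, rn4) was -1.49, -1.07 and -2.05 at 7 d and -3.94, -4.36 and -2.80 at 14 d, a change of -2.16 ± 0.44 (SE; adjusted p = 0.116). That of Ifit1 was -0.97, -0.05 and -0.84 at 7 d and -2.72, -3.47 and -2.08 at 14 d, a change of -2.14 ± 0.40 (adjusted p = 0.108). All arrays of 14 d lay below all arrays of 7 d for both genes, and replicate 2 of 14 d was the lowest. Oasl, an oligoadenylate synthetase-like protein, was at -2.04, -1.28 and -1.87 at 7 d and -3.48, -3.58 and -2.77 at 14 d, a change of -1.55 ± 0.28 (adjusted p = 0.105). Isg15, a ubiquitin-like modifier, was among the bright members, at 4.94, 5.61 and 5.10 at 7 d and 3.89, 3.07 and 4.11 at 14 d, a change of -1.53 ± 0.31 (adjusted p = 0.115). Its days did not overlap either. Irf7, the transcription factor that sustains interferon production, was at 5.16, 5.59 and 5.13 at 7 d and 4.18, 3.91 and 4.59 at 14 d, a change of -1.07 ± 0.21 (adjusted p = 0.112), while Ifi27 stood at 5.24 ± 0.01 at 7 d and 5.15 ± 0.13 at 14 d. Not every member differed: 3 of the 31 had a change above 0, the highest of them 0.14.

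The list was highest at 7 d. Its mean over the 31 genes was -0.13 to 1.05 on the 3 arrays of 0 d, -0.73 to 0.13 at 1 d, -0.06 to 0.39 at 4 d, 1.14 to 1.72 at 7 d and 0.21 to 0.85 at 14 d. The arrays of 7 d thus lay above all other DRG arrays, and those of 14 d lay within the range of 0 d, where replicate 3 stood apart from the other two at 1.05. Without replicate 1 of 7 d the median change was -0.96, with 26 genes lower at an unadjusted p under 0.05, and with the slide as a block it was -1.47, with 24 lower. The block fit ties the slide of the 14 d arrays to the others through SN 14 d replicate 3. On that array the median of the list was 0.48 higher than on SN 14 d replicates 1 and 2, so the size of -1.47 rests on it. In SN the same 31 genes had a median change of -1.13 from 7 to 14 d, and 0 of them differed between the tissues at an adjusted p under 0.05, where 1.6% of the probes tested in both did. In bulk tissue, fewer cells of a type and less RNA per cell cannot be told apart.

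**Figure D2:**
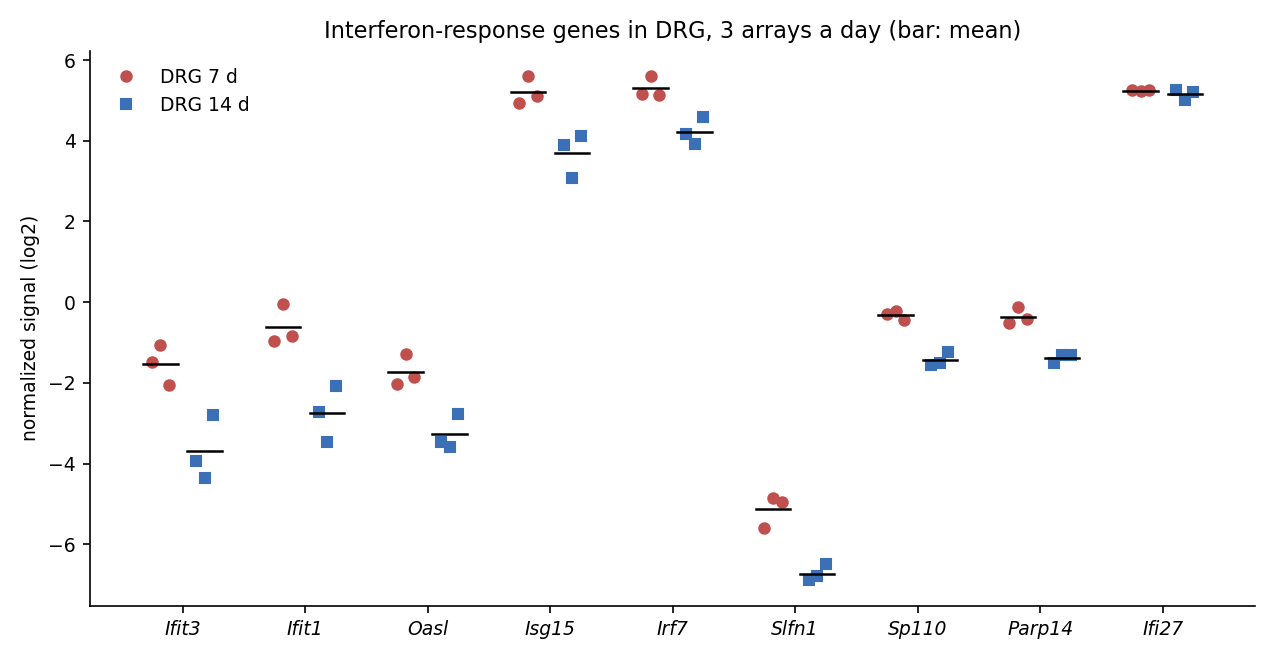
Normalized signal (y axis, log2) of 9 interferon-response genes in DRG on the 3 arrays of 7 d (red circles) and of 14 d (blue squares), with the mean as a bar. In 8 of the 9 the 14 d arrays lie below the 7 d arrays, and Ifi27 overlaps.

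Among the 24 probes called lower with 15 arrays were 3 further genes that interferon is known to induce. Slfn1, of the Schlafen family that restrains lymphocyte growth, was at -5.59, -4.85 and -4.96 at 7 d and -6.90, -6.79 and -6.49 at 14 d (change -1.59 ± 0.22; adjusted p = 0.0359 with 15 arrays), and it was well above background on 1 array of 14 d only. Sp110 (probe at chromosome 9, 84274000 to 84274059, rn4), a nuclear body protein, was at -0.28, -0.21 and -0.44 at 7 d and -1.56, -1.52 and -1.24 at 14 d (change -1.13 ± 0.12; adjusted p = 0.0375 with 15 arrays), and its second probe was also called, at -1.04 with an adjusted p of 0.0271. Parp14, an ADP-ribosyltransferase, was at -0.52, -0.13 and -0.42 at 7 d and -1.50, -1.31 and -1.30 at 14 d (change -1.02 ± 0.12; adjusted p = 0.0484 with 15 arrays), and its other probe had a change of -0.96. For each of the 3 genes the 2 days did not overlap. With the slide as a block their changes were -2.11, -0.999 and -1.13, and Slfn1 was called there too.

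Genes of neighbouring immune systems were lower in part. Of 18 tested complement genes 4 were lower and 1 higher at an unadjusted p under 0.05, where 6.56% of all tested probes were lower. The median was -0.12, or -0.27 in the block fit. C1qc, a chain of the C1q recognition molecule, was lower (-0.81 ± 0.09), as were C4a (-0.52) and C2 (-0.51), both cleaved on activation, and C5ar1 (-0.26), the C5a receptor. C3 was higher (0.49). The brightest members, Serping1 and Cd59, which restrain complement, stood at 5.79 ± 0.11 at 7 d and 5.64 ± 0.10 at 14 d, and at 6.23 ± 0.09 at 7 d and 6.17 ± 0.11 at 14 d. C4a and C4b share a probe and were counted once. Of 19 genes of MHC and antigen presentation 3 were lower, RT1-S3 (-0.75), the peptide transporter Tap1 (-0.52) and Tapbp (-0.41), and 1 was higher, the class II transactivator Ciita (0.64). The invariant chain Cd74 stood at 4.89 ± 0.13 at 7 d and 5.04 ± 0.31 at 14 d, and B2m, the light chain of class I, at 6.73 ± 0.06 at 7 d and 6.73 ± 0.18 at 14 d.

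The macrophage list was split. Of 23 tested genes 6 were lower and 3 higher at an unadjusted p under 0.05, with a median of -0.07, or -0.21 in the block fit, and the mean of the list was 0.09 to 0.32 at 7 d and -0.06 to 0.17 at 14 d, so that the days overlapped. The lower ones with the largest differences were the scavenger receptor Msr1 (-0.82 ± 0.22), the fractalkine receptor Cx3cr1 (-0.56 ± 0.10), Cd68 (-0.43) and Aif1 (-0.38). Lysozyme Lyz2 and cathepsin Ctss, the brightest members, were lower (changes of -0.33 and -0.35). Cd163, the haemoglobin scavenger receptor of resident macrophages, was higher (0.54), as were Fcgr2b (0.32, -0.12 in the block fit) and Adgre1 (0.29). In SN the same list had a median change of -0.55, and 3 of its 23 genes differed between the tissues, Cd163, Trem2 and Csf3r, each with the higher change in DRG. The part of macrophages in the interferon genes was not tested.

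Genes of T and NK cells were higher at 14 d. Of 27 tested genes 18 were higher and 0 lower at an unadjusted p under 0.05, where 15.3% of all tested probes were higher, 19 had days that did not overlap, against 19.9%, and the median change was 0.62. Gzmk, a granzyme of cytotoxic cells, was at -4.39, -4.93 and -4.66 at 7 d and -3.36, -3.62 and -3.10 at 14 d, a change of 1.30 ± 0.19 (adjusted p = 0.0907). Cd5, a surface protein of T cells, was at -5.54, -5.70 and -5.53 at 7 d and -4.84, -4.81 and -4.45 at 14 d, a change of 0.89 ± 0.13 (adjusted p = 0.0907). Cd8b, a chain of the co-receptor of cytotoxic T cells, was at -2.28, -3.43 and -3.34 at 7 d and -2.08, -2.07 and -1.76 at 14 d, a change of 1.05 ± 0.31 (adjusted p = 0.161). Cd3e, a signalling chain of the T cell receptor, was higher (0.87 ± 0.22). The days did not overlap for Gzmk, Cd5 and Cd8b. The brightest members, Cd3d, another chain of that receptor, and Gzmb, stood at 0.17 ± 0.16 at 7 d and 0.36 ± 0.30 at 14 d, and at 0.26 ± 0.34 at 7 d and 0.54 ± 0.29 at 14 d, and their differences did not pass an unadjusted p of 0.05. None of the list passed an adjusted p of 0.05 with 6 or 15 arrays.

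The mean of the T and NK cell list was -5.66 to -4.89 at 0 d, -4.98 to -4.74 at 1 d, -4.58 to -4.44 at 4 d, -4.05 to -3.88 at 7 d and -3.56 to -3.12 at 14 d, and the last 3 days did not overlap, each lying above the one before. These genes are dim, and the processing moved them: 10 of the 27 were higher under quantile normalization, 7 with normexp background correction (median 0.19) and 2 with the slide as a block (median 0.09). The block value rests on SN 14 d replicate 3, where the median of the list was 0.40 higher than on SN 14 d replicates 1 and 2. Without replicate 1 of 7 d the median was 0.62, and 14 genes were higher. In SN the median change was -0.12, and 2 of the 27 genes differed between the tissues, both chains of the cytotoxic co-receptor: Cd8a (0.67 in DRG, -1.45 in SN) and Cd8b (1.05 and -1.10). Of the other leukocyte lists, the 7 tested B and plasma cell genes gave 0 higher and 0 lower (median 0.16, or -0.20 in the block fit), with Cd79b at -4.07 ± 0.22 at 7 d and -4.12 ± 0.26 at 14 d, and Pou2af1 at -1.75 ± 0.16 at 7 d and -1.54 ± 0.20 at 14 d. The 10 neutrophil genes gave 0 and 0 (median 0.16), with S100a8 at 1.09 ± 0.50 at 7 d and 1.80 ± 0.40 at 14 d, and S100a9 at 0.79 ± 0.47 at 7 d and 1.26 ± 0.51 at 14 d. Of 7 mast cell genes 2 were higher, Ms4a2 (0.63) and Mcpt2 (0.48, -0.57 in the block fit), and 0 lower (median 0.42, or -0.16 in the block fit), while Tpsab1 stood at 1.29 ± 0.16 at 7 d and 1.39 ± 0.16 at 14 d, and Cma1 at -2.01 ± 0.14 at 7 d and -1.56 ± 0.43 at 14 d.

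**Figure D3:**
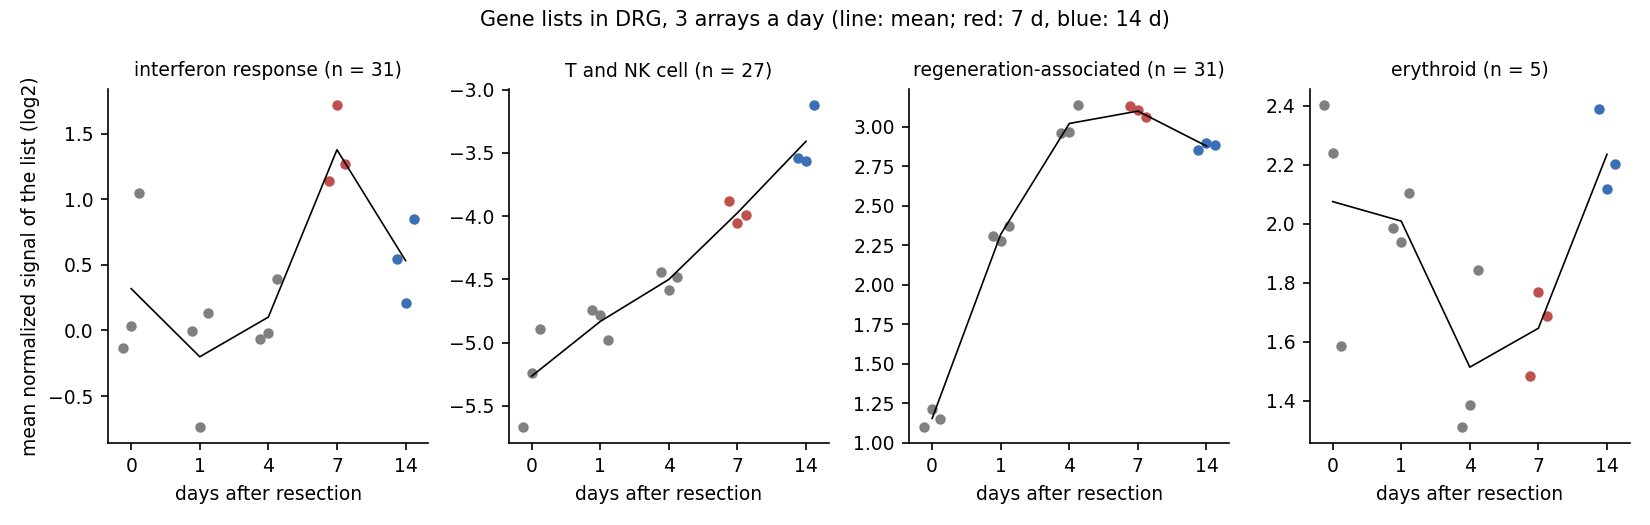
Mean normalized signal (y axis, log2) of 4 gene lists on each DRG array, against days after resection (x axis, evenly spaced categories), with 7 d in red, 14 d in blue and the daily mean as a line. The interferon list is highest at 7 d, the T and NK cell list is highest at 14 d, the regeneration-associated list lies below its 7 d level at 14 d, and the erythroid list lies above it.

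Chemokines and cytokines went both ways, with 5 of 34 tested genes lower and 3 higher at an unadjusted p under 0.05 (median -0.06, or -0.21 in the block fit). Il1a (-0.78 ± 0.19) and Il1b (-0.62 ± 0.23), the interleukin-1 cytokines, and Il6 (-0.52 ± 0.09) were lower. So were Ccl4 (-0.54) and Ccl2 (-0.45), the monocyte attractant and a bright member. Higher were Cxcl2, a neutrophil attractant (0.96 ± 0.31), Ccl5, a T cell product (0.68 ± 0.20), and Lif (0.60 ± 0.17). The osteopontin gene Spp1 stood at 6.22 ± 0.04 at 7 d and 6.03 ± 0.14 at 14 d.

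Haemoglobin genes were higher at 14 d. Of 5 tested erythroid genes 3 were higher and 0 lower at an unadjusted p under 0.05, where 15.3% of all tested probes were higher, with a median of 0.61. In the block fit 2 of the 5 were higher, with a median of 0.77. The beta-globin Hbb (probe at chromosome 1, 161620134 to 161620193, rn4) was at 0.07, 0.11 and 0.11 at 7 d and 1.37, 0.94 and 1.24 at 14 d, a change of 1.09 ± 0.12 that was called with 15 arrays (adjusted p = 0.0351) and was 1.54 in the block fit. Hbb-b1, a near copy whose probe may share its transcripts, was at 6.54, 6.65 and 6.67 at 7 d and 7.39, 7.07 and 7.23 at 14 d (0.61 ± 0.10, adjusted p = 0.0968). Alas2, which starts haem synthesis in red cells, was at 0.76, 0.94 and 0.69 at 7 d and 1.67, 1.49 and 1.10 at 14 d (0.62 ± 0.16, adjusted p = 0.146). The days did not overlap for any of these 3, and Ahsp, which stabilizes alpha-globin, stood at 1.68 ± 0.35 at 7 d and 2.01 ± 0.19 at 14 d. The mean of the list was 1.48 to 1.77 at 7 d and 2.12 to 2.39 at 14 d, with 1.58 to 2.40 at 0 d. Of 13 endothelium and pericyte genes 3 were higher, Cdh5 (0.59, -0.14 in the block fit) on 1 of its 2 probes (-0.16 on the other), Cldn5 (0.40) and Vwf (0.32), and 0 lower (median 0.09, or 0.14 in the block fit), while the VEGF receptor Kdr stood at 3.14 ± 0.07 at 7 d and 3.15 ± 0.20 at 14 d. The part of blood in the tissue in these values was not tested.

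Hamp, the gene of hepcidin, the hormone that blocks iron export from cells, was called lower with 15 arrays. Its signal was 2.81, 2.60 and 2.39 at 7 d and 1.08, 1.29 and 1.74 at 14 d, a change of -1.23 ± 0.19 (adjusted p = 0.019 with 15 arrays), on its probe at chromosome 1, 85978236 to 85978295 (rn4). The level had been -3.95 ± 0.19 (SD) at 0 d, 1.05 ± 0.06 at 1 d and 3.06 ± 0.30 at 4 d, so that the 14 d arrays lay below those of 4 and 7 d and above those of 0 d. In the block fit its change was -1.77, and in SN it was 0.07. The difference of the changes between the tissues had an adjusted p of 0.058.

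Clock genes differed between the days, some lower and some higher at 14 d. Nr1d1, the nuclear receptor Rev-erb alpha that represses Arntl and Npas2, was called lower with 15 arrays. Its signal (probe at chromosome 10, 87543165 to 87543519, rn4) was -1.31, -1.10 and -1.26 at 7 d and -2.81, -2.51 and -2.48 at 14 d, a change of -1.37 ± 0.12 (adjusted p = 0.0907, and 0.0179 with 15 arrays), or 2.59-fold lower. The 14 d arrays lay below all other DRG arrays, with means of -1.14 ± 0.29 (SD) at 0 d, -0.79 ± 0.09 at 1 d and -1.26 ± 0.22 at 4 d. Per1, a period gene and repressor in the clock loop, was at -3.07, -2.30 and -2.35 at 7 d and -1.39, -0.81 and -0.99 at 14 d, a change of 1.51 ± 0.25 (adjusted p = 0.0968), and replicate 1 was the lowest of 7 d. Without it the change was 1.26. Dbp, a clock output factor, was at 0.36, 0.47 and 0.30 at 7 d and -0.28, -0.32 and -0.35 at 14 d, a change of -0.69 ± 0.08 (adjusted p = 0.0907). All 3 genes had days that did not overlap.

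Of the 16 tested clock genes 5 were higher and 2 lower at an unadjusted p under 0.05, with a median of 0.11, or -0.0041 in the block fit. The other higher ones were the repressors Cry1 (0.46 ± 0.15) and Per2 (0.36 ± 0.09), and the activators Npas2 (0.51 ± 0.12) and Arntl (0.28 ± 0.07). Bhlhe41 stood at 3.57 ± 0.17 at 7 d and 3.65 ± 0.16 at 14 d. In SN the changes from 7 to 14 d were -1.05 for Nr1d1 (adjusted p = 0.000443), 1.64 for Per1 (adjusted p = 0.00258), -0.37 for Dbp, 0.56 for Cry1, 0.56 for Npas2, 0.26 for Per2 and 0.22 for Arntl. The signs were those of DRG, and 0 of the 16 genes differed between the tissues at an adjusted p under 0.05. With the slide as a block the changes in Nr1d1 (-1.47, called) and Per1 (1.42) were close to those of the 6 arrays. The hour of collection is not given in the sources used here, and a difference in that hour cannot be told apart from the day.

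**Figure D4:**
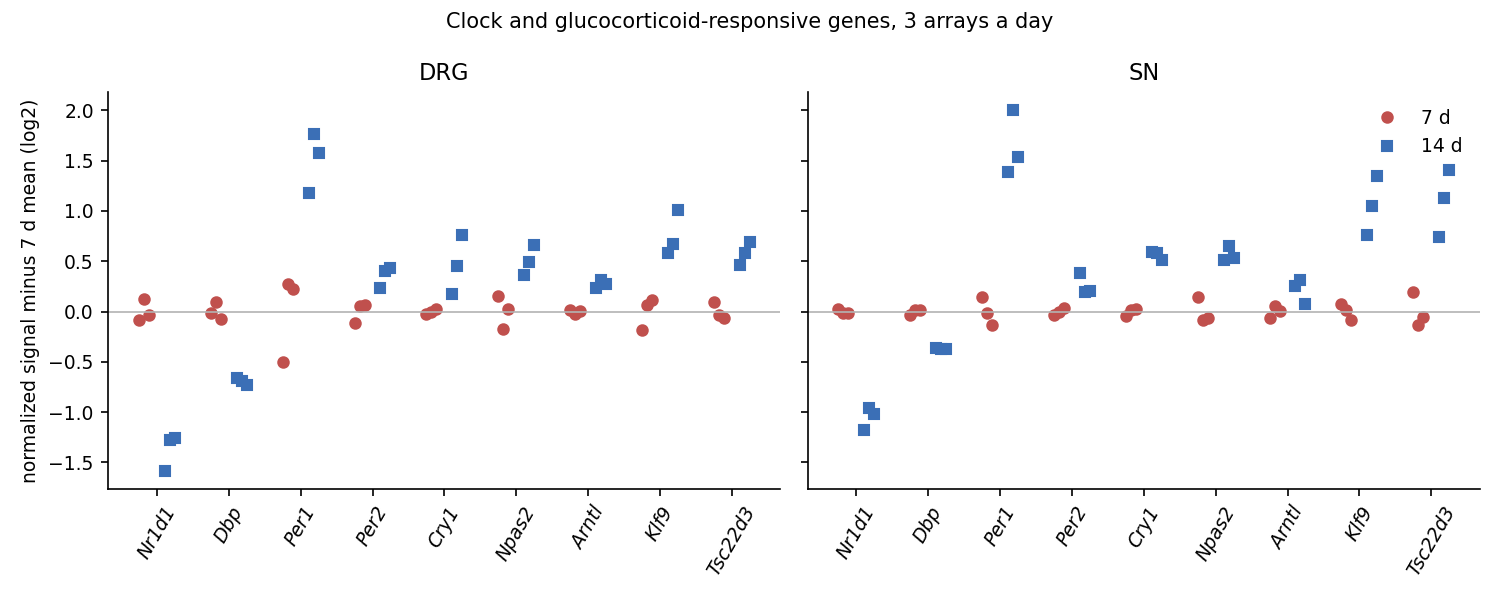
Normalized signal minus the 7 d mean of the same tissue (y axis, log2) for 7 clock genes and 2 glucocorticoid-responsive genes, with the 3 arrays of 7 d as red circles and of 14 d as blue squares, in DRG (left) and SN (right). Nr1d1 and Dbp lie lower and the other 7 genes higher at 14 d in both tissues.

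Genes that glucocorticoid hormone is known to induce were higher in part, 7 of 13 tested at an unadjusted p under 0.05 with 0 lower, where 15.3% of all tested probes were higher. Their median was 0.30, and in the block fit it was 0.28 with 2 higher and 1 lower. Beside Per1, which is in both lists, these included Klf9 (0.75 ± 0.14), Tsc22d3, the anti-inflammatory mediator GILZ (0.58 ± 0.09; adjusted p = 0.0351 with 15 arrays), and the kinase Sgk1 (0.48 ± 0.14). The second probe of Klf9 had a change of -0.13. Cdkn1a, a cell cycle inhibitor, stood at 2.61 ± 0.09 at 7 d and 2.29 ± 0.24 at 14 d on its brightest probe, the one counted. Its second, dim probe was lower, with a change of -0.69 (adjusted p = 0.0455 with 15 arrays). Immediate early genes, which respond to activity and handling within minutes, were higher for 6 of 21 tested and lower for 0 (median 0.18), with 4 higher in the block fit. The share of higher probes over all tested was 15.3%. The largest differences were in Fosl2 (0.69), Egr3 (0.65), Egr2 (0.63 ± 0.09) and Klf4 (0.52), and the bright Nr4a1 was higher (0.38), while Ier2 stood at 2.48 ± 0.14 at 7 d and 2.56 ± 0.23 at 14 d.

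Among the transcription factors of the injury response, Atf3 was close to its 7 d level at 14 d, and Klf7 was lower. Atf3, which is induced in axotomized sensory neurons, stood at 5.69 ± 0.09 at 7 d and 5.79 ± 0.10 at 14 d, against 1.56 ± 0.15 (SD) at 0 d, and Jund at 5.08 ± 0.16 at 7 d and 4.99 ± 0.07 at 14 d. Of 24 tested factors 5 were lower and 2 higher at an unadjusted p under 0.05, with a median of 0.01. Klf7, a Krueppel-like factor known to promote axon growth, was called lower with 15 arrays. On the called probe (at chromosome 9, 62737502 to 62737561, rn4) its signal was 4.72, 4.56 and 4.61 at 7 d and 3.44, 3.61 and 3.47 at 14 d, a change of -1.12 ± 0.09 (adjusted p = 0.0183), and on its other probe the change was -1.01 with an adjusted p of 0.0524 with 15 arrays. The days did not overlap, and the means on the called probe were 4.01 ± 0.17 (SD) at 0 d, 4.06 ± 0.03 at 1 d and 3.91 ± 0.40 at 4 d, between those of 7 and 14 d. Its change in the block fit was -0.08. Also lower were Rest (-0.73 ± 0.15, 0.01 in the block fit), a repressor of neuronal genes whose second probe had a change near 0, Mef2a (-0.54 on 1 probe and 0.23 on the other) and Sox11 (-0.51 ± 0.21). Klf4, a factor known to hold axon growth back, and Cebpd (0.33 ± 0.11) were the higher ones.

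**Figure D5:**
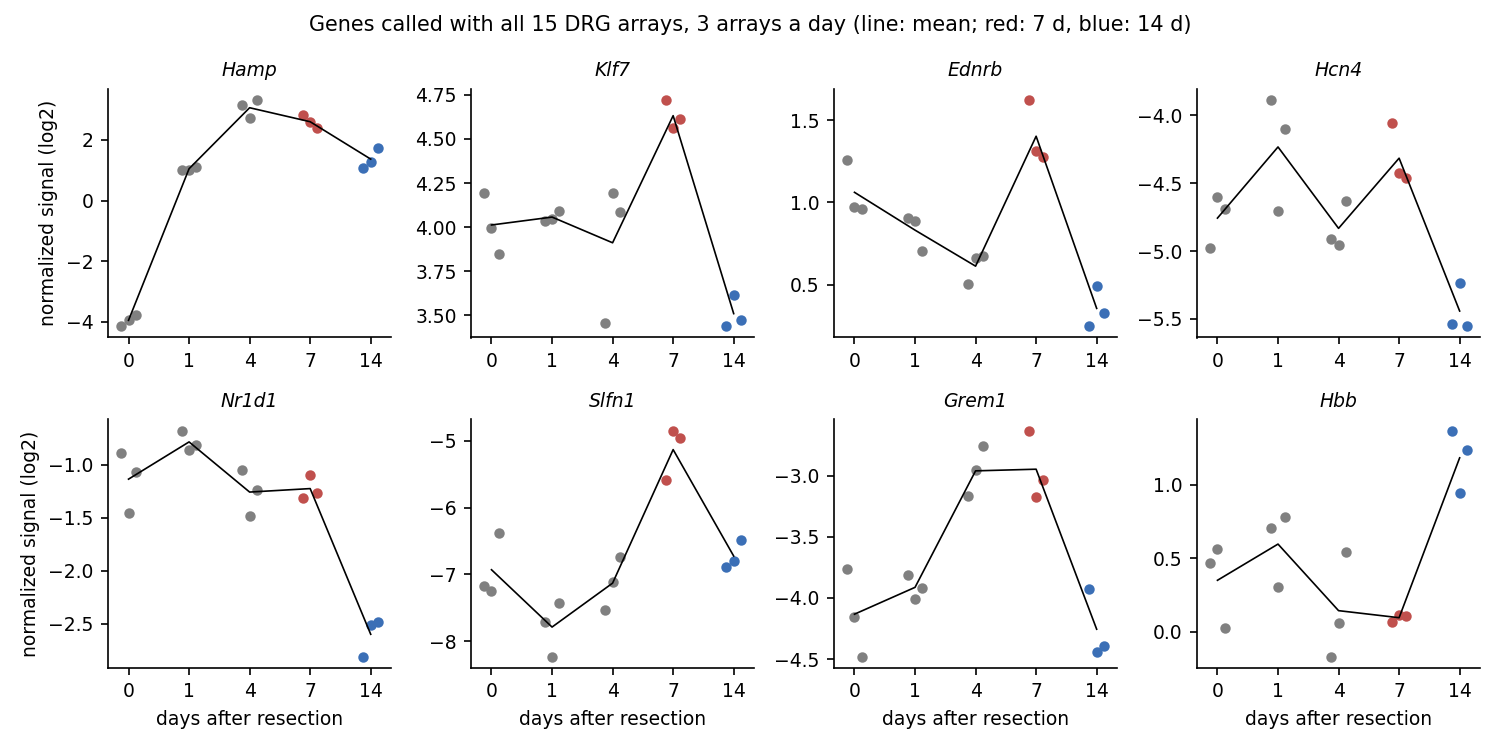
Normalized signal (y axes, log2, a scale for each gene) of 8 genes called with all 15 DRG arrays on each array against days after resection (x axis, evenly spaced categories), with 7 d in red, 14 d in blue and the daily mean as a line. Hbb is higher and the other 7 genes are lower at 14 d than at 7 d.

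Regeneration-associated genes were slightly lower as a list. Of 31 tested genes 12 were lower and 1 higher at an unadjusted p under 0.05, where 6.56% of all tested probes were lower, and 17 lay wholly below their 7 d arrays, against 9.65% of all probes. The median change was -0.17, against 0.07 over all tested probes, and in the block fit it was -0.08 with 6 genes lower. The mean of the list was 3.07 to 3.13 at 7 d and 2.86 to 2.90 at 14 d, with 1.10 to 1.21 at 0 d, so that most of the induced level was still there. Sprr1a, a protein induced by axotomy, was at 1.43, 1.32 and 1.10 at 7 d and 0.12, 0.58 and 0.70 at 14 d, a change of -0.82 ± 0.17 (adjusted p = 0.122), against -4.96 ± 0.22 (SD) at 0 d. The adhesion molecule Ncam1 (-0.81 ± 0.21) and the ankyrin repeat protein Ankrd1 (-0.70 ± 0.11, 0.06 in the block fit) were also lower. Tgm1, a transglutaminase, was at 1.61, 1.32 and 1.21 at 7 d and 0.61, 0.73 and 0.50 at 14 d, a change of -0.77 ± 0.13 that passed an adjusted p of 0.05 with 15 arrays (0.0351). Chl1, an adhesion molecule of the L1 family, was the higher one (0.19), and another of its 3 probes had a change of -0.47. The brightest members, the tubulin Tubb2b and annexin Anxa2, stood at 7.82 ± 0.08 at 7 d and 7.91 ± 0.07 at 14 d, and at 7.39 ± 0.11 at 7 d and 7.30 ± 0.05 at 14 d.

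The injury-induced neuropeptides stood near their 7 d levels at 14 d. Npy was at 7.06 ± 0.11 at 7 d and 7.17 ± 0.13 at 14 d, against 3.27 ± 0.98 (SD) at 0 d, and Gal was at 7.46 ± 0.09 at 7 d and 7.28 ± 0.08 at 14 d, against 3.15 ± 0.05 at 0 d. Of 23 tested peptide genes 2 were higher and 1 lower at an unadjusted p under 0.05 (median 0.03, or -0.31 in the block fit). Npff, an opioid-modulating peptide, was at -0.34, -0.46 and -0.45 at 7 d and 0.18, 0.06 and 0.08 at 14 d, a change of 0.52 ± 0.08 that passed an adjusted p of 0.05 with 15 arrays (0.0232). Cck was higher (0.35), and Adcyap1, the gene of PACAP, was lower (-0.34).

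Among neurotransmitter receptors 7 of 40 were lower and 1 higher at an unadjusted p under 0.05 (median 0.01, or -0.11 in the block fit), where 6.56% of all tested probes were lower. Among the lower ones were the AMPA receptor subunit Gria4 (-0.73 ± 0.17, 0.67 in the block fit) and the GABA A receptor subunit Gabra2 (-0.48 ± 0.15). The substance P receptor Tacr1 was higher (0.28), and P2rx3 and Grin1, the brightest members, stood at 2.08 ± 0.22 at 7 d and 2.10 ± 0.04 at 14 d, and at 2.02 ± 0.05 at 7 d and 1.97 ± 0.18 at 14 d. Of 26 voltage-gated sodium, calcium and HCN channel genes 4 were lower and 2 higher (median 0.01, or -0.27 in the block fit). Hcn4, a pacemaker channel, was called lower with 15 arrays: its signal was -4.06, -4.43 and -4.46 at 7 d and -5.53, -5.24 and -5.55 at 14 d, a change of -1.13 ± 0.15 (adjusted p = 0.0332), and -0.39 with the slide as a block. The sodium channels Scn8a (-0.59) and Scn3a (-0.26) were also lower. The calcium channel Cacna1h was higher (0.76 ± 0.22, -0.01 in the block fit), and the 4 probes of Cacna1e ranged from -0.58 to 1.06, so that no direction is given for it. Cacna2d1, the subunit that gabapentin binds, stood at 6.30 ± 0.02 at 7 d and 6.29 ± 0.11 at 14 d, and Scn4b at 6.12 ± 0.07 at 7 d and 6.10 ± 0.12 at 14 d.

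Of 40 potassium channel genes 4 were higher and 2 lower (median 0.01), where 15.3% of all tested probes were higher and 6.56% lower. Kcnq3, an M-current subunit, was lower (-0.58 ± 0.08). Its change in the block fit was 1.82, with an adjusted p of 0.712 there. The mean of this list was -4.27 to -4.15 on the SN arrays of 7 and 14 d. On the 6 DRG arrays it was -1.06 to -0.93. Kcnc1, a channel of fast-spiking cells, was higher (0.62 ± 0.12), Kcnj6 was higher (0.25), and the sodium-activated Kcnt2 was lower (-0.43). The bright Kcna1 stood at 5.49 ± 0.03 at 7 d and 5.42 ± 0.05 at 14 d on 1 of its 2 probes, the other having a change of -0.91. Of 15 TRP and acid-sensing channel genes 3 were lower, Trpc6 (-0.34, 0.04 in the block fit), the touch channel Piezo2 (-0.26) and Asic3 (-0.24), and 1 higher, Asic4 (0.66) (median 0.05, or -0.24 in the block fit), while Trpv2 stood at 1.58 ± 0.13 at 7 d and 1.45 ± 0.08 at 14 d. The 26 synaptic vesicle genes gave 1 lower and 1 higher, the latter Vamp2 (0.24; median -0.02, or -0.15 in the block fit), with Snap25 at 5.04 ± 0.10 at 7 d and 4.84 ± 0.14 at 14 d, and Sv2b at 6.29 ± 0.33 at 7 d and 6.39 ± 0.23 at 14 d.

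Genes of neuronal type and cytoskeleton went both ways by small amounts. In the neuron identity list 10 genes had a change above 0 and 12 below. In the cytoskeleton list these were 6 and 10. In the neuron identity list 4 of 22 were lower and 0 higher (median -0.03, or -0.15 in the block fit): the transcription factors Pou4f1 (-0.37 ± 0.08), Shox2 (-0.37 ± 0.09, 0.14 in the block fit) and Isl1 (-0.32 ± 0.10, 0.41 in the block fit), which mark sensory neurons or classes of them, and the heavy neurofilament Nefh (-0.29 ± 0.07, 0.44 in the block fit). The tubulin Tubb3 stood at 6.67 ± 0.07 at 7 d and 6.76 ± 0.04 at 14 d, and peripherin Prph at 7.64 ± 0.09 at 7 d and 7.58 ± 0.12 at 14 d. Of 16 neurofilament and cytoskeleton genes 3 were lower, Map2 (-0.54), Nefh and the motor protein Kif5a (-0.24), and 0 higher (median -0.06, or -0.19 in the block fit), with Nefm at 8.02 ± 0.11 at 7 d and 7.86 ± 0.14 at 14 d.

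Trophic factors and their receptors gave 4 higher and 4 lower of 33 tested (median -0.04, or 0.03 in the block fit). Gdnf (0.61 ± 0.19) and Artn (0.44 ± 0.15), ligands of the RET receptor system, and Gfra2 (0.27), a co-receptor of it, were higher, as was Lif. Bdnf (-0.39 ± 0.08), Fgf2 (-0.50 ± 0.14), Il6 and the LIF receptor Lifr (-0.25, 0.10 in the block fit) were lower. The other probes of Bdnf and Fgf2 had changes of -0.15 and -0.10. Ret itself stood at 5.55 ± 0.10 at 7 d and 5.55 ± 0.19 at 14 d.

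In glia, Ednrb, the endothelin B receptor of satellite glia and Schwann cells, was called lower with 15 arrays. Its signal (probe at chromosome 15, 87893634 to 87893693, rn4) was 1.62, 1.31 and 1.27 at 7 d and 0.25, 0.49 and 0.32 at 14 d, a change of -1.05 ± 0.12 (adjusted p = 0.0179), with 1.06 ± 0.17 (SD) at 0 d and -0.39 as its change with the slide as a block. Of the 20 tested genes of satellite glia and Schwann cells it was the 1 lower, and Kcnj10, the potassium channel of satellite glia, the 1 higher (0.46; median 0.11, or 0.06 in the block fit), while Apoe stood at 7.86 ± 0.09 at 7 d and 7.88 ± 0.07 at 14 d, and Vim at 6.02 ± 0.08 at 7 d and 5.98 ± 0.14 at 14 d. Of 20 myelin genes 2 were higher, Cldn11 (1.01 ± 0.29, -0.20 in the block fit) and the myelination factor Egr2, and 1 lower, Pmp2 (-0.36 ± 0.09; median 0.04, or 0.15 in the block fit). The myelin protein Pmp22 stood at 7.65 ± 0.17 at 7 d and 7.63 ± 0.13 at 14 d. Of 8 genes of spinal cord oligodendrocytes and astrocytes 4 were higher and 0 lower (median 0.25): the GABA transporter Slc6a11 (1.15 ± 0.29, -0.15 in the block fit), Mog (0.94 ± 0.30, -0.43 in the block fit), Olig1 (0.92 ± 0.26) and Aldoc (0.18). The share of higher probes over all tested was 15.3%. With the slide as a block the median of these genes was -0.09. On SN 14 d replicate 3 their median was 1.35 higher than on SN 14 d replicates 1 and 2. The block values of these genes rest on that array. Mag, which Schwann cells share, stood at 0.34 ± 0.18 at 7 d and 0.50 ± 0.12 at 14 d.

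Cholesterol synthesis gave 2 lower, Lss (-0.36, 0.24 in the block fit) and Cyp51 (-0.21, 0.09 in the block fit), and 1 higher of 25 tested (median 0.06), with Fdps at 5.97 ± 0.04 at 7 d and 6.08 ± 0.10 at 14 d, and Msmo1 at 5.90 ± 0.03 at 7 d and 6.00 ± 0.15 at 14 d. Lipid uptake and export gave 3 lower of 16, the exporter Abca1 (-0.26), lipoprotein lipase Lpl (-0.22, 0.03 in the block fit) and Cyp27a1 (-0.19), and 0 higher (median -0.05, or 0.03 in the block fit), with Fabp5 at 7.74 ± 0.02 at 7 d and 7.76 ± 0.12 at 14 d. The other probe of Lpl had a change of 0.11. Of 38 extracellular matrix genes 5 were lower and 1 higher (median -0.03). Timp3, an inhibitor of metalloproteinases, was at 1.63, 1.63 and 1.68 at 7 d and 0.47, 1.01 and 0.78 at 14 d, a change of -0.89 ± 0.14 that passed an adjusted p of 0.05 with 15 arrays (0.0368). The stromelysin Mmp3 (-0.57, 0.62 in the block fit), Timp1 (-0.31), Sparc (-0.28, 0.11 in the block fit) and, on 1 of its 2 probes, Fbn1 (-0.45, with 0.32 on the other) were lower too, and Col18a1 was higher (0.22, -0.04 in the block fit). Collagen Col1a1 stood at 6.95 ± 0.01 at 7 d and 6.99 ± 0.10 at 14 d.

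The stress lists were small in their changes. Of 19 genes of the integrated stress and unfolded protein responses 7 were lower and 1 higher (median -0.09), where 6.56% of all tested probes were lower. Dnajb9, a chaperone of the endoplasmic reticulum, was at 0.93, 0.93 and 0.78 at 7 d and 0.12, 0.28 and 0.23 at 14 d, a change of -0.67 ± 0.08 that passed an adjusted p of 0.05 with 15 arrays (0.019), and its other probe had a change of 0.14. Sesn2 (-0.51), Trib3 (-0.34) and Vldlr (-0.29) were lower, Hspa5, the main chaperone of that compartment, was higher (0.23, -0.01 in the block fit), and Phgdh stood at 5.43 ± 0.07 at 7 d and 5.41 ± 0.16 at 14 d. Of 13 heat shock genes 2 were lower, Hsp90aa1 (-0.36) and Hsp90ab1 (-0.28, 0.07 in the block fit), and 1 higher, Hspa8 (0.20, with 4 probes from -0.38 to 0.20; median 0.06, or 0.01 in the block fit), while Hspb1 stood at 6.71 ± 0.07 at 7 d and 6.54 ± 0.08 at 14 d. Of 36 oxidative phosphorylation genes 1 was higher, Cox5b (0.23), and 0 lower (median 0.08, or -0.17 in the block fit), with Cox6a1 at 7.58 ± 0.02 at 7 d and 7.67 ± 0.13 at 14 d, and Cox8a at 6.55 ± 0.11 at 7 d and 6.54 ± 0.03 at 14 d. Of 34 cell cycle genes 2 were lower, Mcm4 (-0.41, 0.02 in the block fit) and Kif11 (-0.20), and 1 higher, Hmmr (0.29; median -0.04), with Ccnd1 at 2.57 ± 0.10 at 7 d and 2.70 ± 0.16 at 14 d. The other probe of Mcm4 had a change of 0.04.

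Markers of tissues beside the ganglia were present on all arrays. The 10 skeletal muscle genes were well above background on all 6 arrays, and the mean of the list was 1.80 to 2.51 at 7 d and 1.88 to 3.39 at 14 d, with days that overlapped. Of these genes 1 was higher, myoglobin Mb (0.73), and 0 lower (median 0.51, or -0.57 with the slide as a block), with Mylpf at 3.71 ± 0.39 at 7 d and 4.22 ± 0.79 at 14 d, and Pvalb, which sensory neurons also make, at 3.30 ± 0.10 at 7 d and 3.31 ± 0.23 at 14 d. On SN 14 d replicate 3 the median of this list was 1.21 higher than on SN 14 d replicates 1 and 2. The value of -0.57 rests on that array. The mean of the list ran from -1.12 to 4.78 over the SN arrays of 7 and 14 d. Of 5 adipocyte genes 1 was lower, Cidec (-0.58 ± 0.09), and 0 higher (median -0.11), with Adipoq at -2.66 ± 0.61 at 7 d and -2.57 ± 0.48 at 14 d, and Cfd at 1.28 ± 0.11 at 7 d and 1.17 ± 0.06 at 14 d. Of 9 genes of meninges and connective tissue 1 was lower, Igfbp2 (-0.36), and 1 higher, Pi16 (0.37; median -0.14, or 0.06 in the block fit), with Ptgds at 4.53 ± 0.47 at 7 d and 4.32 ± 0.05 at 14 d, and Slc13a3 at 3.61 ± 0.03 at 7 d and 3.72 ± 0.12 at 14 d.

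The remaining probes called with 15 arrays were of several kinds. Of the 24 lower ones 17 had a gene symbol, standing for 16 genes. All 24 had days that did not overlap, against 9.65% of all tested probes on the lower side. As they were selected by their change on these same arrays, this is no added evidence. Grem1, an antagonist of bone morphogenetic proteins, was at -2.63, -3.17 and -3.04 at 7 d and -3.93, -4.44 and -4.40 at 14 d, a change of -1.31 ± 0.20 (adjusted p = 0.0193 with 15 arrays), and its second probe had a change of -0.88 with an adjusted p of 0.0351. In the block fit the change of the first probe was -0.80. Its level had been -4.13 ± 0.36 (SD) at 0 d and -2.96 ± 0.20 at 4 d, so that the 14 d arrays were back in the range of 0 d. B3gnt7, which extends keratan sulfate chains, was at -1.75, -2.04 and -2.02 at 7 d and -3.13, -3.24 and -3.35 at 14 d, a change of -1.30 ± 0.11 (adjusted p = 0.019), and of -0.34 in the block fit. Tent5a, a poly(A) polymerase, had a change of -1.05 ± 0.12 (adjusted p = 0.0445; -0.40 on its other probe), and Pld5, a phospholipase D family member, of -1.03 ± 0.16 (adjusted p = 0.0183), and in the block fit these were -0.91 and -0.73. In 4 genes the probes disagreed. The called probe of Mon1b had a change of -1.23 and the other of 0.32, that of Lars1, a leucyl-tRNA synthetase, -1.13 and the other -0.10, that of Cdc27, a subunit of the anaphase-promoting complex, -1.12 and the other -0.28, and that of Fndc3a -1.001 and the others -0.20 and 0.10. In the block fit the 4 called probes had changes of -0.08, -0.30, -0.24 and -0.23.

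Of the 11 probes called higher with 15 arrays 4 had a gene symbol. Beside Hbb they were Zc3hav1l, a zinc finger protein (1.06 ± 0.18, adjusted p = 0.0366; -0.08 on its other probe and 0.67 in the block fit), the enamel protein Ambn (1.09 ± 0.16, adjusted p = 0.0183) and the olfactory receptor Or6d13 (adjusted p = 0.0351). Or6d13 stood out from the background on 0 of the 3 arrays of 7 d, and it was at least 2.3-fold higher at 14 d than the lowest signal well above background there. Without replicate 1 of 7 d, 11 of the 11 higher and 18 of the 24 lower probes were called in the fit of the 14 remaining arrays. In the block fit 0 of the higher and 2 of the lower probes were called, namely Nr1d1 and Slfn1. The sign was opposite there for 2 of the higher probes, Ambn (-0.96) and Or6d13 (-0.09), and for 2 of the lower, neither with a gene symbol.

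The same interval in SN was set beside that in DRG. In SN the 2 days lay on different slides, scanned on different days. The SN change, and a difference from it, therefore cannot be told apart from slide and scan day. Over 32521 probes tested in both tissues, the change from 7 to 14 d differed by over 2-fold at an adjusted p under 0.05 for 189 (0.581%), of which 98 were above and 91 below the change in SN. The DRG change was under 2-fold in 97 of the 98 and in 90 of the 91, with median changes of 0.14 and -0.04, whereas the SN medians were -1.14 and 1.24. Changes over 2-fold at an unadjusted p under 0.05 were rare in DRG, 678 higher and 72 lower of 33955 probes. In DRG 36 of the 98 and 26 of the 91 had an unadjusted p under 0.05, against 21.8% of all tested probes in the fit of 6 arrays. The signs were opposite in the 2 tissues for 75 and 52 probes. The metalloproteinase genes Mmp13 and Mmp9 differed by 2.74 and 2.33 (difference of the changes, DRG minus SN), and kininogen Kng1 by 2.44. On the other side were Egfl6 (-3.01), the synaptic vesicle gene Syn2 (-2.36) and Kcnj13 (-2.24). In the gene lists, cell cycle had the most genes whose change differed at an adjusted p under 0.05 and any fold, 7 of 34, against 1.6% of all probes: Mcm5, Tk1, Bub1b, Aurka, Plk1, Kif20a and Cdkn3. Their changes in DRG lay between -0.11 and 0.12 and those in SN between -0.93 and -0.52, and the medians of the list were -0.04 in DRG and -0.57 in SN. Among the largest differences, Grem1 (-2.10) was the 1 probe of the 91 with a DRG change over 2-fold, and its change in SN was 0.79, the opposite direction. In a fit that blocks on the slide, the differences of Mmp13 and Grem1 no longer passed (adjusted p = 0.0983 and 0.139).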

How the data were processed

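Per the file headers, the authors read each single-dye array with Agilent Feature Extraction (annotation build rn4), which gave for every spot a processed intensity, with the background subtracted and spatial trends removed within the array, beside the raw mean and background intensities. The authors also deposited log2 values of 41012 probes, 1 column per array, whose normalization over all 30 arrays serves here as an alternative. Spots marked as outliers were left out, log2 processed intensities were averaged per probe (263 probes have several spots), and the 75th percentile of each array was subtracted.

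The 33955 probes that stood well above background on each array of at least 1 day were tested with limma 3.58.1 in R 4.3.3 on the 6 arrays, with Benjamini-Hochberg adjustment. Between 33755 and 35573 probes per array were well above background, 0 spots were saturated, and the number of arrays limits the precision. Same-numbered arrays of the 2 days were not taken as pairs, since their deviations correlated at -0.12, 0.09 and -0.17. Symbols were updated through RefSeq accessions (13701 of 33592 matched); promoters are RefSeq's on GRCr8, not the array's build. The scripts were tested on simulated data.

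The comparison, the 38 gene lists (of 1 probe a gene, the brightest tested) and the tests were chosen with earlier results of these data known, so that no list is independent evidence. The rule for naming genes took up to 15 called genes per direction, in each list up to 4 called members per direction or else the 2 brightest, and 5 per direction for the difference between tissues. As 0 probes were called, the genes called with 15 arrays, list members passing an adjusted p of 0.05 there, up to 4 members per direction at an unadjusted p under 0.05 and the list members differing between tissues are named too, chosen after their values were seen. Some genes that the rule names are not reported here. The study's text describes 10 groups of 6 rats and another extraction reagent than the labels.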

Additional observations from a re-analysis of the deposited data

Results flagged for a closer look

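The change from 7 to 14 d differed between DRG and SN, by the interaction in a limma fit of 12 arrays, for 98 probes with the higher change in DRG and 91 with the lower. The largest differences (DRG change minus SN change, log2) were 2.74 for Mmp13, 2.46 for Fabp7, 2.44 for Kng1, 2.33 for Mmp9 and 2.31 for Csn1s1 on one side. On the other they were -3.01 for Egfl6, -2.36 for Syn2, -2.36 for the olfactory receptor Or8b1d, -2.24 for Kcnj13 and -2.10 for Grem1. Fabp7 and Csn1s1 were well above background on 0 of the 3 SN arrays of 14 d, so that their SN changes, and these 2 differences, rest on signals at the background. With the slide as a block the differences of Mmp13 (adjusted p = 0.0983), Or8b1d (0.284) and Grem1 (0.139) no longer passed. The SN arrays of the 2 days lay on different slides, scanned on different days, and this cannot be told apart from the SN change.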

How the results depend on the processing

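The t-test, the 15-array fit and the replicate block keep the same difference of means, apart from missing values. They could not alter a direction. With these included, the direction of the 152 genes whose change is given was the same under 12 of the 13 alternatives run for each (1824 values). The exception was the slide as a block over both tissues, an alternative chosen after seeing the data, with which 27 changed sign: Ambn (-0.96), Ankrd1 (0.056), Cacna1h (-0.0095), Cdh5 (-0.14), Cldn11 (-0.20), Col18a1 (-0.045), Cyp51 (0.091), Fcgr2b (-0.12), Gria4 (0.67), Hsp90ab1 (0.073), Hspa5 (-0.0070), Isl1 (0.41), Kcnq3 (1.82), Lifr (0.095), Lpl (0.033), Lss (0.24), Mcm4 (0.022), Mcpt2 (-0.57), Mmp3 (0.62), Mog (-0.43), Nefh (0.44), Or6d13 (-0.086), Rest (0.0078), Shox2 (0.14), Slc6a11 (-0.15), Sparc (0.11) and Trpc6 (0.039). None of these 27 values had an adjusted p under 0.05. Of all the values recomputed 64 were called. With the main settings 0 probes were called, and 0 under quantile normalization, other percentile or filter settings, with marked spots kept, with the slide as a random block, with a replicate block or without a fold threshold. Probes were called (higher, then lower) with normexp (3 and 20), the authors' log2 values (0 and 7), all 15 DRG arrays (11 and 24), the 12 DRG arrays of 1 to 14 d (10 and 21), scan day as a block (1176 and 51) and the unadjusted t-test of the methods (212 and 62). Among alternatives chosen after seeing the data they were 5 and 112 with the slide as a block over both tissues, 12 and 24 over both tissues with no block, 626 and 24 with 14 DRG arrays lacking replicate 1 of 7 d, and 16 and 65 with 15 arrays and quantile normalization. Leaving out 1 array gave 0 to 1175 and 0 to 51, above 0 only without DRG 7 d replicate 1. Members of the gene lists called were 0, but 9 with normexp, 4 with 15 arrays and 0 to 18 leaving out 1 array. Interferon genes lower numbered 25 of 31, or 20 to 26 under the alternatives (22 to 26 leaving out 1 array), with a median between -1.47 and -0.693. T and NK cell genes higher numbered 18 of 27, but 10 under quantile normalization, 7 with normexp, 10 with the authors' log2 values, 10 with 15 arrays and 2 with the slide as a block (13 to 19 leaving out 1 array), with a median between 0.091 and 0.639. Of 494 list medians recomputed 93 moved beyond the spread of arrays, 27 of them with the slide as a block. The lowest correlation between the days was 0.985, and 0.9929 with normexp.

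The probes that differed between DRG and SN (98 above, 91 below) numbered above SN 53 under quantile normalization, 57 with the authors' log2 values, 231 with all 30 arrays and 62 with the slide as a block. With normexp they were 33 and 53, and without a fold threshold 284 and 235. Leaving out 1 array gave 34 to 1942 and 51 to 190; without SN 14 d replicate 3 they were 1942 and 190, and without DRG 7 d replicate 1 446 were above. With a replicate block 37 were above and 54 below, and in DRG alone the block left 0 called, with a smallest adjusted p of 0.243. The replicate numbers are not known to pair the arrays. The cause of these movements was not tested.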
